A study of Mus musculus with 54 samples.

Results

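The genes of 6 STAT proteins (signal transducers and activators of transcription) were followed in mouse macrophages: Stat2, Stat3, Stat4, Stat5a, Stat5b and Stat6. They were chosen by their symbols and are 6 of the 39179 genes counted. Their read counts were compared across all 15 conditions of the series.

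The macrophages were the adherent cells of peritoneal exudates of C57BL/6 mice aged 8 to 20 weeks, which had been injected with thioglycolate. In the polarization experiment, cells of 3 mice were kept for 24 h without stimulus (M0 24 h), with LPS at 100 ng/ml plus IFNγ at 50 ng/ml (M1-like 24 h) or with IL-4 at 10 ng/ml (M2-like 24 h), and 2 technical replicates were sequenced for each mouse and condition. The reprogramming experiment covered 12 conditions with 3 replicates each: untransfected macrophages of the M0, M1-like and M2-like kind, the same macrophages given only the transfection reagent (mock), and M2-like macrophages transfected with siRNA after 24 h of IL-4. The siRNA conditions were a negative siRNA pool, pools against E2f1, Myc, Pparg or Stat6, and these 4 pools combined, called iM1 (induced M1). After transfection the cells were cultured without IL-4, and RNA was sequenced 48 h later. M0 macrophages were again unstimulated, and M1-like macrophages were given LPS plus IFNγ for 24 h at the same concentrations. Whether LPS and IFNγ were removed for the following 48 h is not stated in the sources used here. No other time is given for the untransfected macrophages. The experiments were sequenced at different facilities with reads of 50 and 150 nucleotides, so no value of one was tested against the other.

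STAT proteins wait in the cytoplasm until a cytokine binds its receptor, which carries Janus kinases (JAKs) that phosphorylate the receptor and then the STAT. Phosphorylated STATs pair, enter the nucleus and bind DNA, and some of the genes they switch on, such as the SOCS genes, encode inhibitors that act back on the receptor and the kinases. STAT2 acts with IRF9 downstream of type I interferon, STAT3 downstream of IL-6 and IL-10, STAT4 downstream of IL-12, STAT5A and STAT5B downstream of GM-CSF and related cytokines, and STAT6 downstream of IL-4 and IL-13, the signals of M2-like polarization. The activity of these proteins is set mainly by phosphorylation, which read counts do not measure.

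Stat2 and Stat6 lie on chromosome 10 of GRCm38, Stat6 at 127642986 to 127660957 and Stat2 at 128270559 to 128292849, both on the plus strand and 609601 bases apart. Stat5b (100780731 to 100850724, minus strand), Stat5a (100859351 to 100885169, plus strand) and Stat3 (100885098 to 100939540, minus strand) follow each other on chromosome 11. Stat4 lies on chromosome 1 at 51987148 to 52107189 on the plus strand. The ends of Stat3 and Stat5a overlap by 72 exonic bases on opposite strands, and Stat6 overlaps Nab2 by 40 exonic bases in the same way. Stat4 shares 1033 exonic bases with the annotated gene Gm28177 on its own strand. Stat5a and Stat5b share 608 stretches of 50 bases, 8.21% of those in Stat5a and 10.98% of those in Stat5b. How reads were split between these genes is uncertain, since neither the strand setting nor the treatment of reads with several matches is given in the sources used here.

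The promoters were searched because several of the 6 genes rose together under LPS and IFNγ. All 6 members matched the RefSeq promoter table (GRCm38.p6), with 9 start sites, and the 250 bases before each start were read. On both strands, 3 motifs were looked for: TTC and GAA with any 3 bases between them (GAS, which most STATs bind), TTC and GAA with any 4 bases between them (the wider spacing known for STAT6), and GAAA repeated after any 2 bases (the core of the ISRE, bound by STAT2 with IRF9). A match was present in 7.02%, 5.854% and 2.977%, respectively, of 32851 windows of all genes. Only the windows of Stat2 and of the downstream start of Stat4 held a match, and both are shown with the matches in capitals, 5′ to 3′ on the plus strand, at chr10:128270248-128270497 for Stat2 and chr1:52007990-52008239 for Stat4.
Stat2 promoter: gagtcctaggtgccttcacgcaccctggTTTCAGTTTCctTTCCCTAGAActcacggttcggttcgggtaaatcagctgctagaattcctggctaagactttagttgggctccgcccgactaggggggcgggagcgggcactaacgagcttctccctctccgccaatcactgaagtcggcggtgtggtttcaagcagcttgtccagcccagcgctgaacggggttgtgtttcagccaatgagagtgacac
Stat4 downstream promoter: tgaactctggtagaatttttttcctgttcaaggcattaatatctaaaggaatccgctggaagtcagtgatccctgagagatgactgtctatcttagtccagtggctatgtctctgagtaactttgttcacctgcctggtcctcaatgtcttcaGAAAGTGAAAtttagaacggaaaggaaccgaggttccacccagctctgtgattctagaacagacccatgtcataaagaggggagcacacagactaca
In the Stat2 window, the ISRE core (on the minus strand) begins 222 bases before the start and the wider STAT6 spacing 210 bases before it. In the Stat4 window, the ISRE core begins 97 bases before the start. These matches are letters only, and binding was not measured.

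The counts of a library summed to between 19714994 and 29880494 in the polarization experiment and to between 13421854 and 19704195 in the reprogramming experiment. Technical replicates of a mouse differed by little more than counting noise (chi-square per gene 1.07 to 1.10, against 3.64 to 52.15 between mice), and were summed to 1 sample. Of 9 macrophage markers, all were present in every condition. Their summed level lay between 6581 and 18836 CPM (read counts scaled to depth) and was mostly Lyz2. In the reprogramming experiment, the sum was lower in M1-like macrophages (7090 to 8236 CPM) than in M0 (16862 to 17213 CPM). So were Lyz2 itself (3836 to 4895 against 12027 to 12442 CPM) and the sum of the other markers (3219 to 3340 against 4772 to 4981 CPM). Markers of mesothelial cells and fibroblasts summed to 13.4 to 70.8 CPM in M1-like and M1-like mock samples and to 74.6 to 300 CPM (299.9 at most) in the other reprogramming samples. The part of these shifts in the results below was not tested. In bulk RNA, fewer cells of a type and less RNA per cell cannot be told apart. Where the study's methods describe the RNA for quantitative PCR, they call the 3 replicates of iM1 and of each untreated or polarized state biological, and they do not say whether the reprogramming libraries came from separate mice. Their p-values measure the spread between these samples, which may be technical.

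Within unstimulated macrophages, Stat6 was the most abundant of the 6 genes. Levels of different genes were compared per length of their exons (RPKM, read counts scaled to depth and exon length). In M0 24 h, Stat6 reached 57.3 ± 0.44 RPKM (SD, n = 3 mice), Stat5b 12.3 ± 0.46, Stat3 11.9 ± 0.36, Stat2 7.19 ± 0.29, Stat5a 4.17 ± 0.12 and Stat4 0.26 ± 0.06 RPKM, and in this order only Stat5b and Stat3 were closer than their spread. Stat6 made up 61.5% ± 0.39 (SD, n = 3) of the summed level of the 6 genes in M0 24 h and 61.5% ± 0.21 in M2-like 24 h. In M1-like 24 h its share was 23.4% ± 1.16, while its own level was 63.9 ± 4.47 RPKM. There Stat2 held 44.1% ± 2.52 and Stat3 27.01% ± 1.59 of a summed level of 273 ± 11.5 RPKM, compared to 93.1 ± 0.91 RPKM in M0 24 h. Stat4 was the lowest of the 6 in all 15 conditions.

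**Figure D1:**
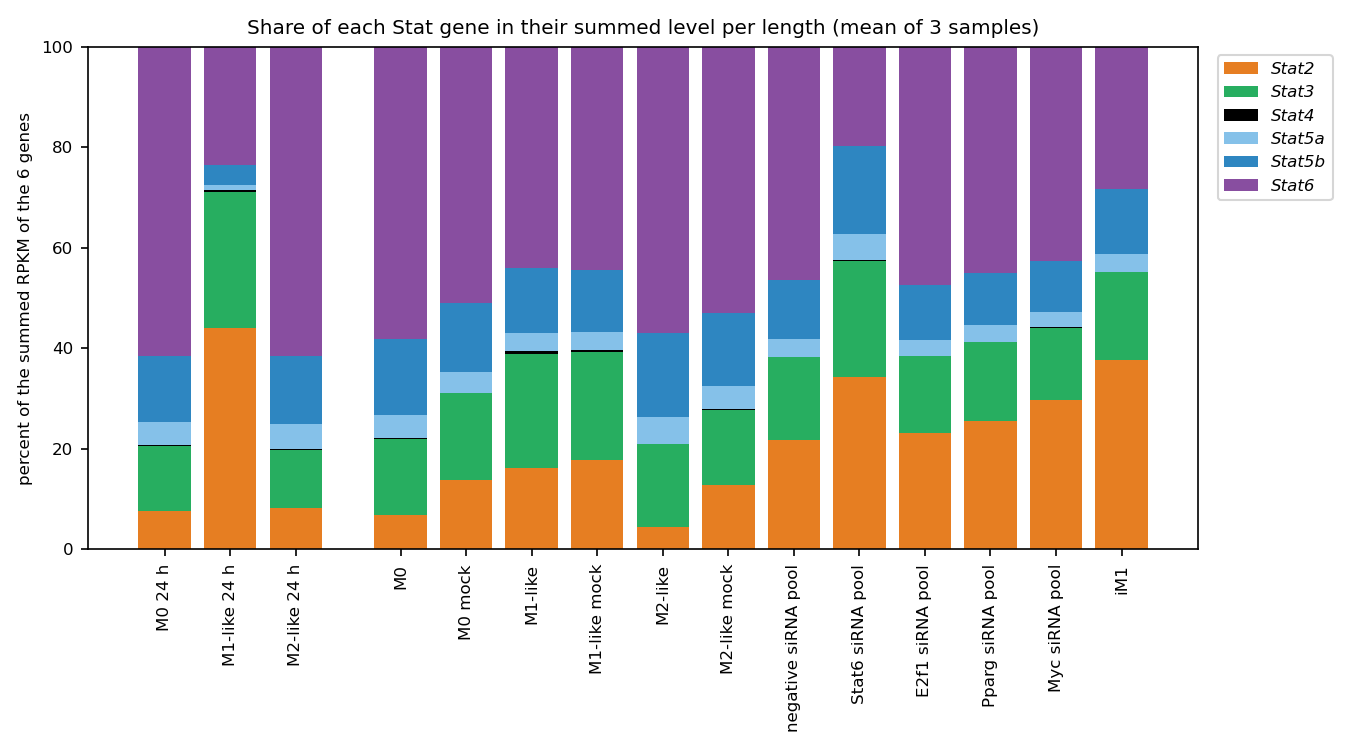
Share of each of the 6 genes in their summed level per length, in percent of summed RPKM, as stacked bars for the 15 conditions (mean of 3 samples each). Stat6 holds most of the sum in M0 and M2-like macrophages, whereas Stat2 holds the largest share in M1-like 24 h (44.1%), iM1 (37.6%) and the Stat6 siRNA pool (34.4%).

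In the reprogramming experiment, Stat6 also led in M0 (58.2% ± 1.10 of the summed RPKM, SD, n = 3), M2-like (57.0% ± 1.97) and M1-like macrophages (44.1% ± 2.36). Stat2 led in iM1, with 37.6% ± 2.48 against 28.3% ± 1.995 for Stat6, and in the Stat6 siRNA pool, with 34.4% ± 4.41. In the latter, Stat6 (19.7% ± 3.51) ranked behind Stat3 (23.0% ± 0.72), with the gap within the spread of Stat6. In M2-like macrophages Stat2 ranked even behind Stat5a, at 4.79 ± 0.55 compared to 5.56 ± 0.50 RPKM, a gap little larger than the SD of either gene.

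**Figure D2:**
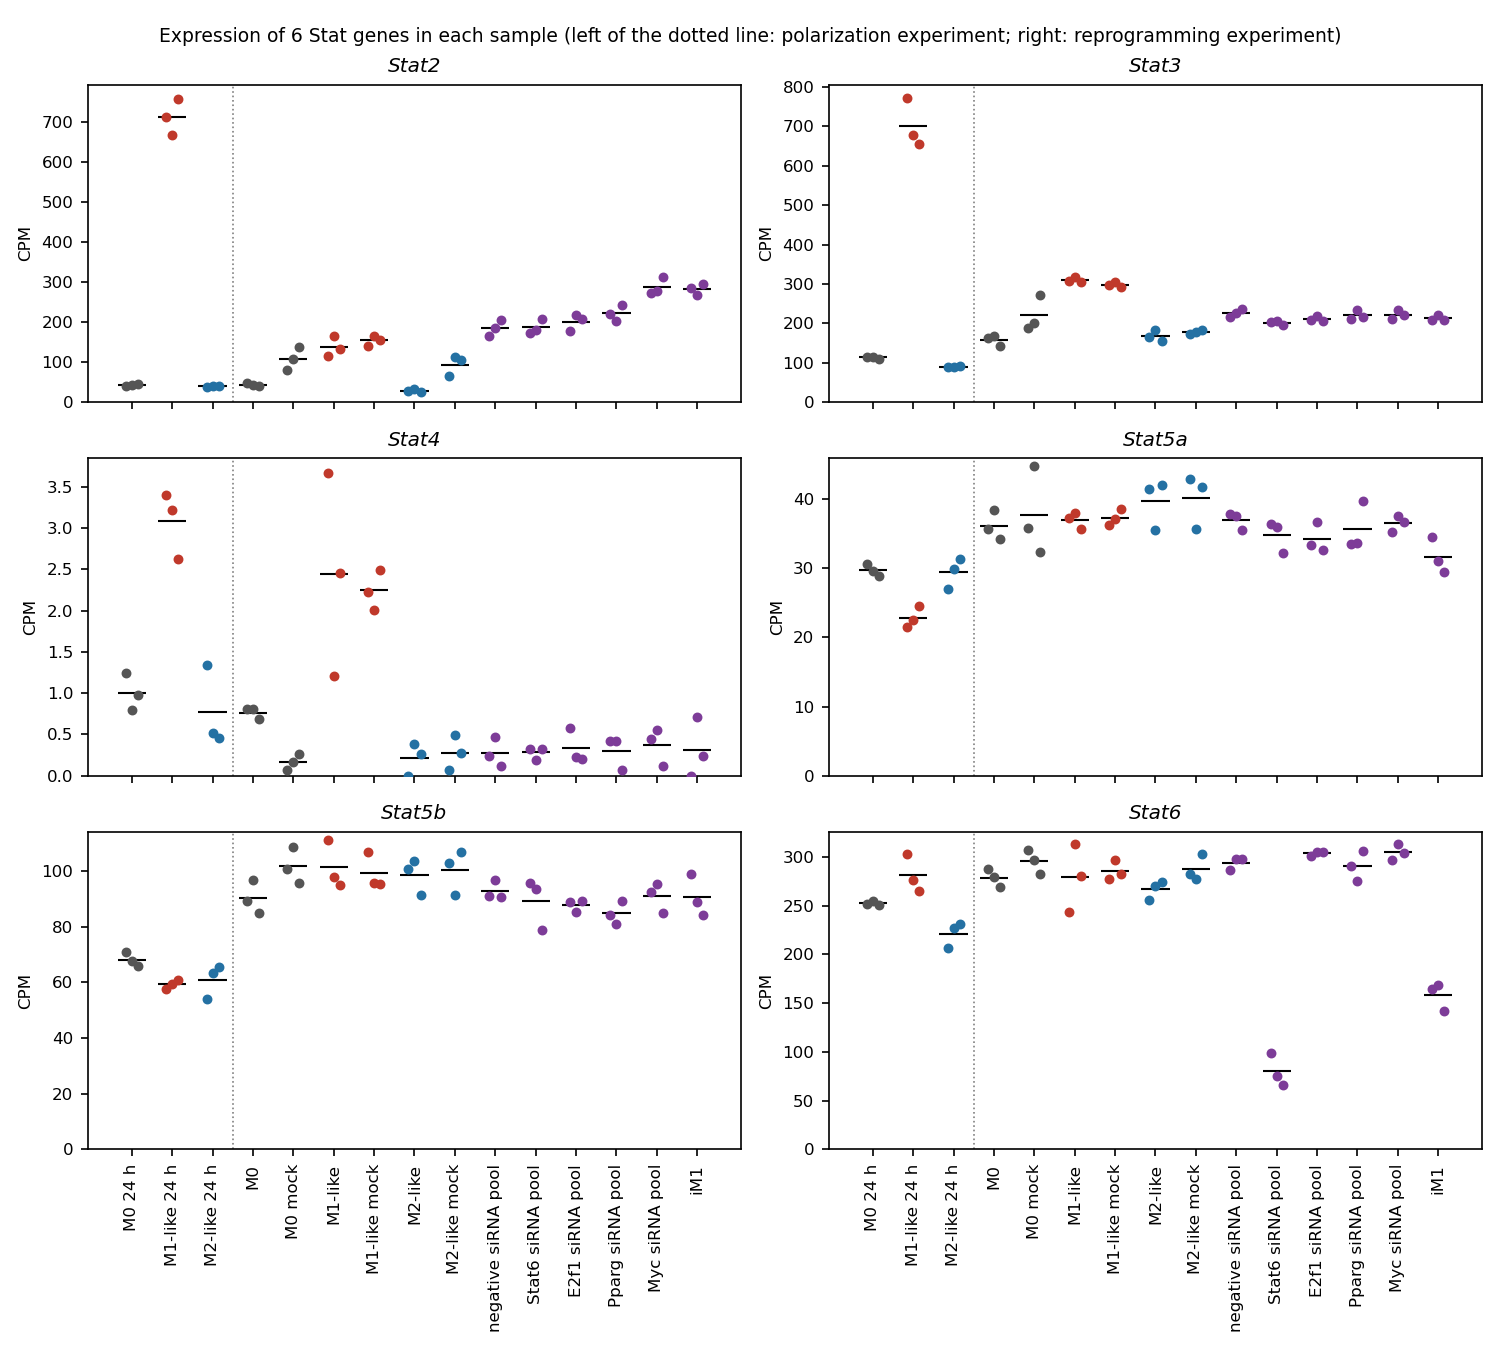
CPM of each gene in each sample (points) with the mean of 3 samples (bars) for the 3 conditions of the polarization experiment, left of the dotted line, and the 12 conditions of the reprogramming experiment, each panel with its own linear axis from 0. Stat2 and Stat3 stand out in M1-like 24 h, Stat2 climbs from M2-like to the siRNA conditions, Stat6 is low in the Stat6 siRNA pool and iM1, and Stat4 stays under 4 CPM.

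The first question was how LPS and IFNγ changed the STAT genes within 24 h. Stat2, Stat3 and Stat4 rose and Stat5a and Stat5b fell in M1-like 24 h compared to M0 24 h, so that 5 of the 6 genes passed the test, and Stat6 did not. Genes were called at an adjusted p-value under 0.05 in edgeR's quasi-likelihood test (two-sided, Benjamini-Hochberg over all genes tested), which gave every adjusted p-value below unless another tool is named, and 72.9% of 16110 genes were called in this comparison. The median log2 fold change of the 6 was 0.88, against -0.04 for all genes.

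Stat2 was measured at 40.8, 42.9 and 44.1 CPM in M0 24 h and at 713, 668 and 757 CPM in M1-like 24 h. Every M1-like mouse lay far above every M0 mouse, a log2 fold change of 4.06 (standard error, SE, 0.07, adjusted p = 4.73e-13), or 16.7-fold. Stat3 was at 115, 116 and 110 CPM (109.6 in the last mouse) in M0 24 h and at 772, 678 and 656 CPM in M1-like 24 h. The groups did not overlap, and Stat3 rose by 2.63 on the log2 scale (SE 0.07, adjusted p = 1.27e-11). Stat4, best known from T cells and NK cells, had 1.24, 0.80 and 0.97 CPM in M0 24 h and 3.40, 3.22 and 2.62 CPM in M1-like 24 h. This is a rise of 1.61 (SE 0.31, adjusted p = 0.000499) at a level of 43 to 126 reads per sample. NK cell markers (6 genes) summed to 0.504 to 0.740 CPM in M0 24 h and to 0.162 to 0.179 CPM in M1-like 24 h. T cell markers (9 genes, mostly Il7r) summed to 711 to 752 CPM in M0 24 h and to 633 to 709 CPM in M1-like 24 h. Without Il7r they summed to 1.77 to 2.08 and 5.35 to 6.16 CPM. Dendritic cell markers (6 genes, mostly Ccr7) summed to 2.96 to 5.90 CPM in M0 24 h and to 29.5 to 40.4 CPM in M1-like 24 h, or to 1.43 to 1.78 and 3.14 to 3.78 CPM without Ccr7. Their part in the level of Stat4 was not tested.

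Stat5a fell from 30.7, 29.6 and 28.9 CPM to 21.5, 22.6 and 24.5 CPM, a log2 fold change of -0.38 (SE 0.07, adjusted p = 0.000613). Its groups did not overlap. For Stat5b the values were 70.7, 67.6 and 65.7 CPM in M0 24 h and 57.6, 59.6 and 60.9 CPM in M1-like 24 h, a log2 fold change of -0.20 (SE 0.07, adjusted p = 0.0268). This call was lost with RLE normalization (adjusted p = 0.0596), with DESeq2 (0.0674) and without mouse 1 or 2 of either condition (0.0598 to 0.161). Stat6 had 252, 254 and 251 CPM in M0 24 h and 303, 276 and 265 CPM in M1-like 24 h. The groups were apart, but with 0.16 (SE 0.07, adjusted p = 0.0523) the difference missed the threshold in edgeR, and it passed with RLE normalization (0.0252), DESeq2 (0.0174), a fit of only these groups (0.0317) or without M1-like mouse 3 (0.0256).

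Under IL-4, the cytokine that signals through STAT6, the changes were small. Of the 6 genes, 1 was called in M2-like 24 h compared to M0 24 h, where 27.9% of all genes were called, and the median of the 6 was -0.17 (all genes 0.00). Stat3 fell from 115, 116 and 110 CPM to 88.1, 89.9 and 92.2 CPM, by 0.33 on the log2 scale (SE 0.07, adjusted p = 0.00395), with no overlap. Stat6 itself was at 206, 227 and 231 CPM, below all M0 24 h samples, with a log2 fold change of -0.19 (SE 0.07, adjusted p = 0.0564). It passed the threshold with DESeq2 (0.0298), with at least 10 counts in every sample (0.0492) and without M2-like mouse 3 (0.0493). Stat2 (38.3, 40.6 and 39.5 CPM) lay just under the M0 24 h values, with a log2 fold change of -0.11 (SE 0.06, adjusted p = 0.233). Stat5b lay below M0 24 h (54.0, 63.2 and 65.4 CPM) with -0.16 (SE 0.07, adjusted p = 0.120). Stat5a and Stat4 overlapped with M0 24 h, and without M2-like mouse 1, whose 1.34 CPM was the highest of its group, Stat4 passed the test (-1.05, adjusted p = 0.00768).

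Set directly against M2-like 24 h, M1-like 24 h had higher Stat2, Stat3, Stat4 and Stat6 and lower Stat5a, again 5 of the 6 genes where 72.6% of all genes were called. The log2 fold change was 4.17 for Stat2 (SE 0.07) and 2.96 for Stat3 (SE 0.07). Stat6 was higher by 0.35 (SE 0.07, adjusted p = 0.000584), since its M1-like and M2-like values lay on opposite sides of M0 24 h.

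**Figure D3:**
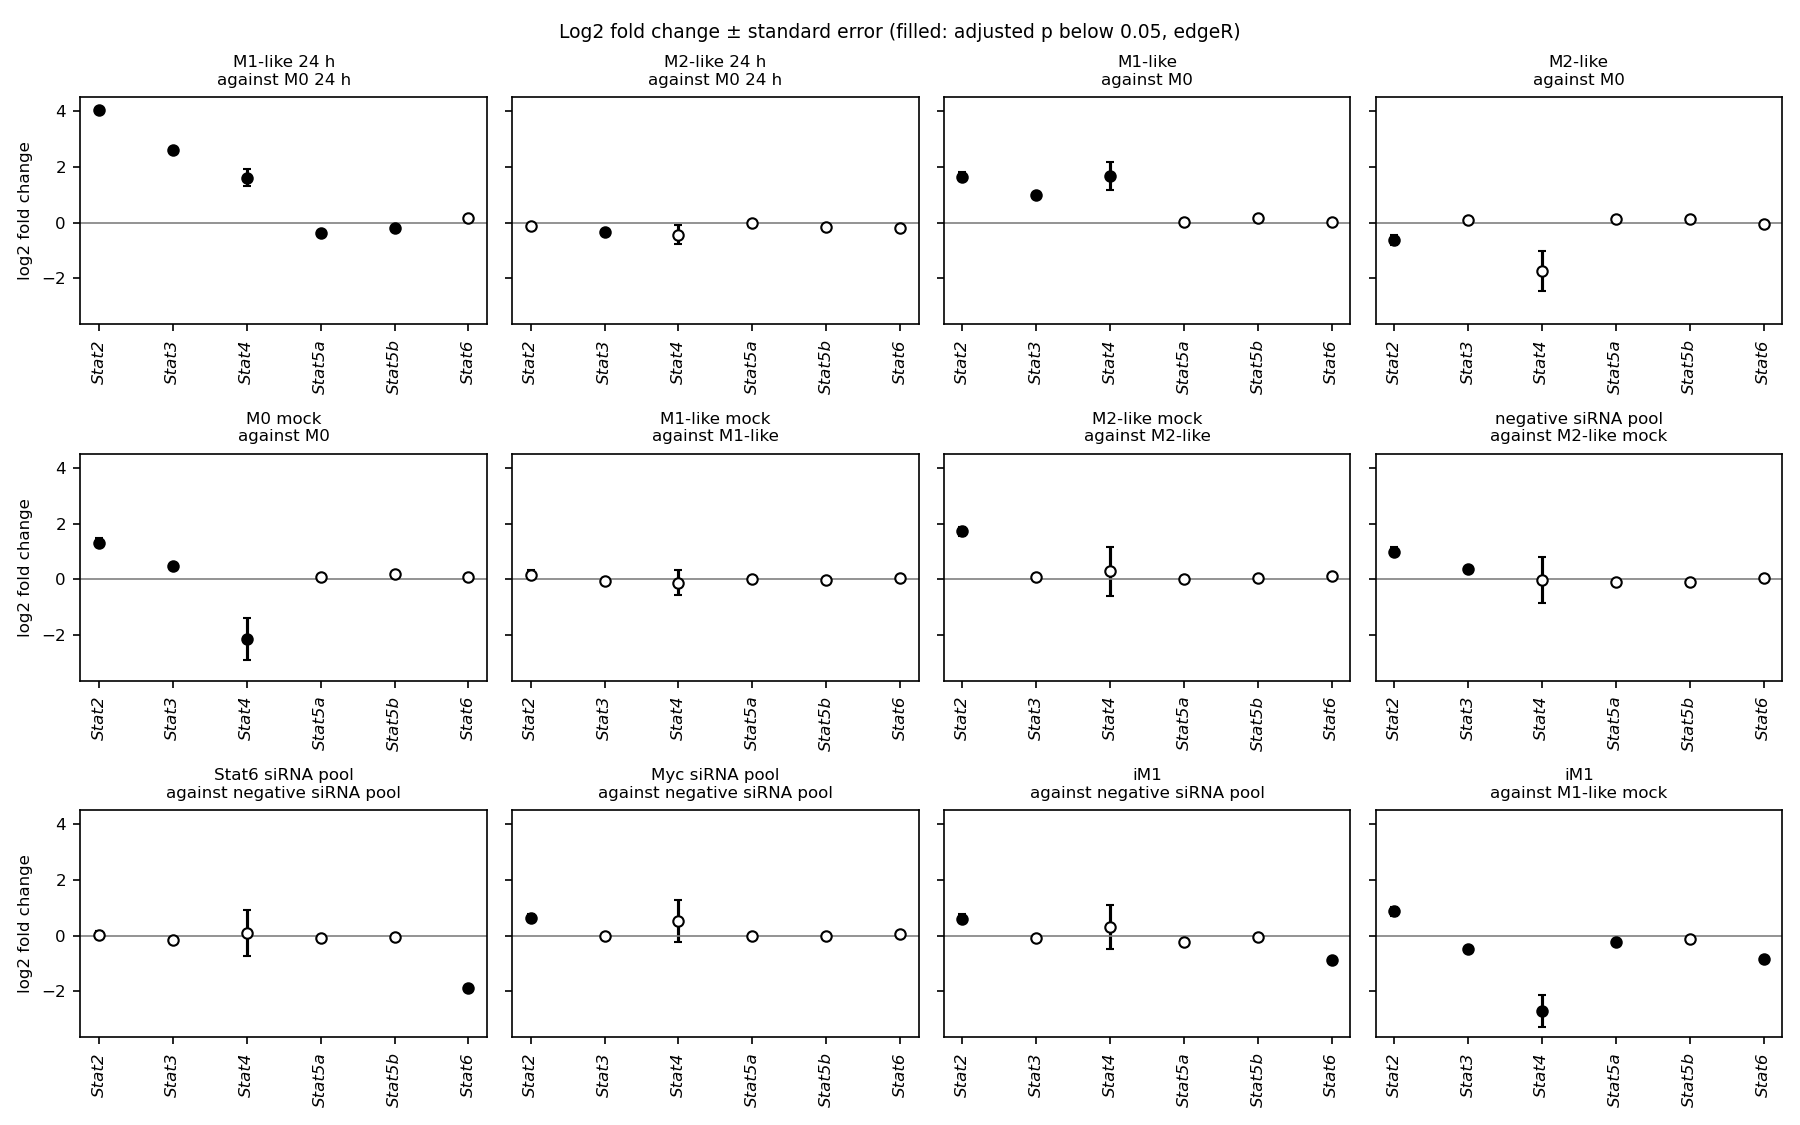
Log2 fold change of each gene with its SE in 12 comparisons (filled points: adjusted p under 0.05 in edgeR). Stat2 passed the test in 9 of the 12 comparisons, while Stat5a and Stat5b stay between -0.38 and 0.17 in all of them.

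Upstream of the STATs, the receptor list held 24 genes. The lists were drawn up from general knowledge of the pathway, with earlier results of these data known. In M1-like 24 h, where 72.9% of all genes were called, 15 of the 24 receptor genes rose and 5 fell compared to M0 24 h (median 0.87, all genes -0.04). Il12rb1, a chain of the receptors for IL-12 and IL-23 upstream of STAT4, had 0.058 ± 0.036 CPM (SD, n = 3 mice) in M0 24 h and 69.5 ± 6.94 CPM in M1-like 24 h. Il15ra, the alpha chain for IL-15, rose by 6.04 (SE 0.10, adjusted p = 2.36e-13). Ifngr1, the ligand-binding chain for IFNγ, fell from 113 ± 1.51 to 42.1 ± 0.22 CPM (-1.42, SE 0.05, adjusted p = 8.22e-11), and Il27ra fell by 1.15 (SE 0.10, adjusted p = 4.34e-07). All 4 JAK genes rose (median 1.69), led by Jak2, which carries IFNγ and GM-CSF signals, from 59.7 ± 2.26 to 563 ± 20.7 CPM (3.24, SE 0.09, adjusted p = 1.77e-11), and Jak3, the partner of the common gamma chain, by 2.25 (SE 0.13, adjusted p = 1.17e-08).

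In M2-like 24 h, where 27.9% of all genes were called (72.9% in M1-like 24 h), 4 receptor genes rose and 4 fell (median 0.04, all genes 0.00), among them Il6st, the shared chain of the IL-6 family receptors, from 206 ± 8.12 to 526 ± 15.1 CPM (1.35, SE 0.06, adjusted p = 5.57e-08) and Il21r (0.92, adjusted p = 0.00261). Csf3r, the receptor for G-CSF, fell by 0.87 (SE 0.07, adjusted p = 6.23e-06) and Il13ra1 by 0.56 (adjusted p = 0.00149). Of the JAK genes, Jak2 rose by 0.74 (SE 0.09, adjusted p = 8.70e-05), while Jak3 (-0.54, adjusted p = 0.0113) and Tyk2 (-0.29, adjusted p = 0.0486) fell.

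The list of STAT inhibitors (SOCS and PIAS proteins, phosphatases and Usp18) held 17 genes. In M1-like 24 h, where 72.9% of all genes were called, 10 of them rose and 3 fell (median 0.53). Socs1, an inhibitor of JAK kinases, rose from 0.576 ± 0.070 to 260 ± 30.7 CPM (8.81, SE 0.20, adjusted p = 2.71e-12), and Cish, a SOCS family member switched on by STAT5, from 0.134 ± 0.025 to 17.7 ± 2.197 CPM (7.02, SE 0.17, adjusted p = 3.58e-12). Socs6 (-1.55, adjusted p = 1.05e-08) and Socs5 (-0.96, adjusted p = 5.73e-08) fell. In M2-like 24 h, where 27.9% of all genes were called, 4 rose and 2 fell (median 0.02). Cish reached 13.4 ± 0.72 CPM there (6.63, SE 0.17, adjusted p = 5.90e-10) and Socs1 6.54 ± 1.54 CPM (3.51, adjusted p = 6.29e-07), while Ptpn6, the phosphatase SHP-1, fell by 0.53 (adjusted p = 0.00049) and Pias3 by 0.37 (adjusted p = 0.00299).

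Downstream, the list of type I interferon target genes, the genes for which STAT2 with IRF9 is known, rose as a whole in M1-like 24 h: 24 of 24 genes, with a median of 5.67. Ifit2, an antiviral protein, went from 2.89 ± 0.33 to 2255 ± 328 CPM (9.61, SE 0.17, adjusted p = 4.87e-13), and Ifi44 from 0.020 ± 0.020 to 114 ± 23.1 CPM. Of the 17 STAT3 target genes, 16 rose and 1 fell (median 2.34), beside 72.9% of all genes called. Lcn2, an iron-scavenging acute phase protein, rose by 9.67 (SE 0.20, adjusted p = 1.67e-12). Ccl12, a chemokine, had no read in M0 24 h and 16.9 ± 1.29 CPM in M1-like 24 h, at least 297-fold higher with 3 counts set per M0 sample, and the median was also 2.34 with this bound. Bcl6, a transcriptional repressor, fell by 0.65 (SE 0.07, adjusted p = 6.07e-06). Of 11 STAT5 target genes tested, 8 rose and 2 fell (median 0.94), with Cish and the cyclin gene Ccnd2 (4.998, adjusted p = 9.53e-10) on the one side and Bcl2 (-0.96, adjusted p = 5.88e-07) and Id1 (-0.71, adjusted p = 0.0296) on the other. Many of the listed genes are also known targets of other factors that LPS switches on.

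For IL-4, 19 of 22 IL-4 and STAT6 target genes rose in M2-like 24 h and 0 fell (median 3.14), while Stat6 itself did not rise. Of all genes, 27.9% were called in this comparison. Chil3, the secreted chitinase-like protein Ym1, went from 13.8 ± 3.47 to 5927 ± 752 CPM (8.74, SE 0.26, adjusted p = 2.29e-09) and Arg1, arginase, from 5.52 ± 1.79 to 471 ± 55.2 CPM (6.42, SE 0.46, adjusted p = 2.29e-06). Of the STAT5 targets, 5 rose and 3 fell (median 0.23), with Cish and Socs2 (2.501, adjusted p = 6.59e-05) the highest and Pim2 (-0.64, adjusted p = 0.0139) and Osm (-0.54, adjusted p = 0.0138) the lowest.

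The untransfected macrophages of the reprogramming experiment were compared next, and 3 of the 6 genes were called in M1-like compared to M0 macrophages, where 57.7% of 14172 genes were called. The median of the 6 was 0.57 (all genes 0.01). Stat2 was at 48.02, 43.2 and 40.7 CPM in M0 and at 117, 166 and 132 CPM in M1-like macrophages. All M1-like samples were higher, and Stat2 rose by 1.66 on the log2 scale (SE 0.16, adjusted p = 2.56e-10). Stat3 rose from 163, 167 and 142 CPM to 308, 318 and 305 CPM, by 0.98 (SE 0.09, adjusted p = 2.21e-11), again without overlap. Stat4 was at 0.81, 0.81 and 0.68 CPM and at 3.66, 1.20 and 2.46 CPM, a rise of 1.67 (SE 0.52, adjusted p = 0.00625) that was lost without M1-like replicate 1, the highest value (adjusted p = 0.0628). Stat5a, Stat5b and Stat6 overlapped between the groups. Stat5b, at 0.17 (adjusted p = 0.0733), passed without M1-like replicate 3 (0.0447).

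In M2-like compared to M0 macrophages, 1 of the 6 genes was called, with 19.9% of all genes called. It was Stat2, which fell to 28.0, 31.8 and 25.3 CPM, below all M0 samples (-0.63, SE 0.17, adjusted p = 0.00821). Stat4 had 0, 0.39 and 0.26 CPM (0 to 6 reads) in M2-like macrophages, under the M0 samples, but did not pass the test (adjusted p = 0.0910), except without the filter on low counts (0.0317). M1-like set against M2-like macrophages gave higher Stat2 (2.29, SE 0.17), Stat3 (0.89, SE 0.09) and Stat4, 3 of the 6, where 61.5% of all genes were called.

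In M1-like against M0 macrophages, where 57.7% of all genes were called, 10 of 24 receptor genes rose and 11 fell. Their median was -0.39 (all genes 0.01). Il12rb1 was at 0.092 ± 0.047 and 28.6 ± 9.71 CPM (SD, n = 3) in M0 and M1-like macrophages and Il15ra rose by 3.45 (SE 0.13, adjusted p = 1.31e-20). Il27ra (-2.68, adjusted p = 4.69e-14) and Il12rb2, the other chain of the IL-12 receptor (-2.32, adjusted p = 2.96e-07), fell. Of the 4 JAK genes, Jak2 (1.06, SE 0.07, adjusted p = 1.35e-14) and Jak1 (0.50, adjusted p = 1.58e-10) were the highest of 3 that rose (median 0.48), and 0 fell. Of the 17 inhibitors, 5 were higher and 5 lower (median 0.14), beside 57.7% of all genes called. Socs1 rose from 0.939 ± 0.285 to 44.8 ± 15.8 CPM (5.55, SE 0.35, adjusted p = 4.47e-15) and Cish was at 0.0906 ± 0.0401 and 4.16 ± 1.33 CPM, while Socs5 (-1.05, adjusted p = 1.95e-10) and Socs6 (-0.95, adjusted p = 3.90e-10) fell.

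Among the targets, 22 of 24 interferon target genes rose in M1-like compared to M0 macrophages (median 1.95), with Ifit2 from 5.21 ± 2.83 to 303 ± 33.3 CPM (5.89, SE 0.41, adjusted p = 6.40e-14) and Ifi44 at 0.118 ± 0.154 and 11.8 ± 1.37 CPM. Of the 17 STAT3 targets, 12 rose and 3 fell (median 0.96), beside 57.7% of all genes called. Socs3, the feedback inhibitor that STAT3 switches on, rose by 4.31 (SE 0.47, adjusted p = 2.18e-09) and Ccl12 was at 0.021 ± 0.036 and 1.02 ± 0.255 CPM, whereas Zfp36, which destabilizes mRNAs (-1.30, adjusted p = 2.46e-09), and Bcl6 (-0.76, adjusted p = 1.13e-07) fell. Of the STAT5 targets, 6 rose and 2 fell (median 0.78), with Cish and the kinase gene Pim1 (1.74, adjusted p = 3.57e-15) highest and Id1 (-1.99, adjusted p = 4.24e-05) and Ccnd1 (-0.68, adjusted p = 0.0221) lowest. In M2-like against M0 macrophages, 9 interferon targets fell and 0 rose (median -0.77), with Oas3 (-2.51, adjusted p = 5.80e-09) and Rtp4 (-2.28, adjusted p = 2.35e-06) the lowest. Without the filter on low counts 18 of 24 fell. In the main fit of this comparison, 19.9% of all genes were called. Of 19 IL-4 and STAT6 targets tested, 8 rose (median 0.32), with Chil3 at 947 ± 66.7 against 9.75 ± 1.94 CPM (6.60, adjusted p = 3.72e-21) and Retnla, the secreted protein RELMα, at 307 ± 117 against 11.1 ± 1.24 CPM (4.78, adjusted p = 1.77e-07).

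Mock transfection served as the control for the transfection reagent. It raised Stat2 in M0 and M2-like macrophages, and no difference passed the test in M1-like macrophages. In M0 mock compared to M0, 3 of the 6 genes were called, with 20.4% of all genes called. Stat2 was at 79.9, 108 and 138 CPM in M0 mock, all above the M0 samples, and its rise was 1.31 (SE 0.16, adjusted p = 3.12e-07). Stat3 was at 189, 201 and 271 CPM, a rise of 0.48 (SE 0.09, adjusted p = 9.46e-05), with replicate 3 standing apart from the other M0 mock samples. Stat4 fell to 0.07, 0.16 and 0.26 CPM, which is 1 to 4 reads per sample (-2.15, SE 0.76, adjusted p = 0.0421), and this call was lost whichever of the 6 samples was left out (0.05002 to 0.128).

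In M2-like mock compared to M2-like macrophages, Stat2 was the only one of the 6 genes called, with 1.77% of all genes called. It rose from 28.0, 31.8 and 25.3 CPM to 65.0, 112 and 105 CPM (111.6 and 104.6), by 1.72 on the log2 scale (SE 0.17, adjusted p = 6.18e-09), and every mock sample was higher. In M1-like mock compared to M1-like macrophages, 0 of the 6 genes and 0.0% of all genes were called by edgeR, and DESeq2 also called 0 of 6 and 0 of all genes. At an unadjusted p under 0.05 there were 438 genes and none of the 6. Stat2 was at 141, 166 and 155 CPM in M1-like mock, overlapping with M1-like macrophages (0.16, SE 0.15).

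The type I interferon targets followed the same comparisons, with 20.4% (M0), 1.77% (M2-like) and 0.0% (M1-like) of all genes called. All 24 rose in M0 mock (median 2.71, all genes 0.00) and all 24 in M2-like mock (median 3.21, all genes 0.00) compared to the untransfected macrophages. Ifit2 went from 5.21 ± 2.83 to 226 ± 146 CPM in M0 mock (5.47, SE 0.41, adjusted p = 1.43e-11), where Ifi44 was at 0.118 ± 0.154 and 9.12 ± 8.19 CPM. In M2-like mock Ifi44 was at 6.85 ± 4.66 and Ifit3b at 7.96 ± 3.72 CPM, compared to 0.139 ± 0.128 and 0.089 ± 0.035 CPM. In M1-like mock, 0 of the 24 passed the test in edgeR or DESeq2 and 0 had an unadjusted p under 0.05, with a median of 0.19. Receptor genes changed in M0 mock as well, with 7 higher and 2 lower (median 0.12): Il12rb1 (0.482 ± 0.205 against 0.092 ± 0.047 CPM) and Il12rb2 (0.86, adjusted p = 0.0102) were highest, and Csf1r, the receptor for M-CSF (-0.53, adjusted p = 0.000226), and Ifnar1, a chain of the type I interferon receptor (-0.21, adjusted p = 0.0292), were lowest.

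Among mock-transfected macrophages, the effect of LPS and IFNγ on Stat2 and Stat3 was smaller. In M1-like mock compared to M0 mock, 3 of the 6 genes were called, with 60.4% of all genes called. Stat2 was higher by 0.51 (SE 0.16, adjusted p = 0.00588) with no overlap, but without M0 mock replicate 1, the lowest value, the call was lost (adjusted p = 0.0768). Stat3, at 297, 305 and 292 CPM in M1-like mock, was higher by 0.44 (SE 0.09, adjusted p = 6.10e-05) and Stat4, at 2.23, 2.01 and 2.496 CPM, by 3.70 (SE 0.65, adjusted p = 1.34e-05). Of the interferon targets, 2 rose and 14 fell in this comparison (median -0.53), with Rsad2 (1.20, adjusted p = 2.56e-06) and Xaf1 (0.41, adjusted p = 0.0255) higher and Ifit3b (-2.92, adjusted p = 3.90e-07) and Oas2 (-1.73, adjusted p = 3.24e-09) lowest.

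The M1-like against M0 difference between mock and untransfected macrophages was tested directly as a difference of the log2 fold changes. It was called for 2 of the 6 genes, against 9.07% of all genes: -1.15 for Stat2 (SE 0.22, adjusted p = 0.000697) and -0.54 for Stat3 (SE 0.12, adjusted p = 0.00295). The latter missed the threshold in a fit of only these groups (0.0570). All 24 interferon targets were lower by this measure (median -2.62).

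In M2-like mock compared to M0 mock, 1 of the 6 genes was called, with 3.83% of all genes called. Stat3, at 172, 178 and 182 CPM in M2-like mock, was lower by 0.31 (SE 0.09, adjusted p = 0.0343), and this was lost without M0 mock replicate 3 (-0.14, adjusted p = 0.332), without M2-like mock replicate 1 or 2 (0.140 and 0.108) and in a fit of only these groups (0.340). The M2-like against M0 difference between mock and untransfected macrophages was called for 1 of the 6 genes, against 5.66% of all genes. This was Stat3 (-0.40, SE 0.12, adjusted p = 0.0467), and the call was lost without any of 8 of the 12 samples (adjusted p = 0.0576 to 0.185) and in a fit of only these groups (0.220). For Stat2 this difference was 0.42 (SE 0.23, adjusted p = 0.333). Of the IL-4 and STAT6 targets, 9 of 19 rose in M2-like mock compared to M0 mock (median 0.91), with Chil3 at 849 ± 142 against 2.58 ± 0.37 CPM (8.34, adjusted p = 1.41e-22) and Retnla at 290 ± 174 against 1.64 ± 0.69 CPM (7.41, adjusted p = 1.18e-08).

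M1-like mock set against M2-like mock had higher Stat2 (0.72, SE 0.16, adjusted p = 0.000202), Stat3 (0.75, SE 0.09) and Stat4 (3.005, SE 0.61), 3 of the 6, where 60.7% of all genes were called. Compared to the same difference without mock, Stat2 was the only one of the 6 called, against 1.13% of all genes, with a difference of -1.57 (SE 0.23, adjusted p = 3.38e-05).

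The negative siRNA pool showed what siRNA without a target did to the M2-like macrophages. Compared to M2-like mock, Stat2 and Stat3 rose, 2 of the 6 genes, with 11.7% of all genes called. Stat2 was at 166, 185 and 205 CPM, all above the mock samples (0.98, SE 0.16, adjusted p = 4.30e-05), and Stat3 at 216, 227 and 235 CPM, likewise (0.35, SE 0.09, adjusted p = 0.00583). All 24 interferon targets rose (median 1.42, all genes 0.01), with Ifi44 at 60.1 ± 5.35 compared to 6.85 ± 4.66 CPM (3.15, SE 0.34, adjusted p = 1.00e-07) and Ifit3b higher by 2.51 (adjusted p = 1.59e-06). From M2-like to M2-like mock to the negative siRNA pool, the mean of Stat2 was thus 28.4 ± 3.27, 93.7 ± 25.1 and 185 ± 19.8 CPM (SD, n = 3).

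The siRNA targets were checked next. Stat6 was at 286, 298 and 297 CPM in the negative siRNA pool and at 99.2, 75.0 and 66.4 CPM in the Stat6 siRNA pool, a mean of 27.3% ± 5.79 (SD, n = 3) of the negative pool. In iM1 it was at 165, 168 and 142 CPM, or 53.9% ± 4.82. All 6 of these samples lay below the other 10 conditions, in which Stat6 was between 243 and 313 CPM. Each other target was lower in its own pool too, with E2f1 at 25.2% ± 4.05, Pparg at 21.9% ± 2.57 and Myc at 38.0% ± 8.01 of the negative pool, and in iM1 at 60.4% ± 2.01, 28.3% ± 2.25 and 39.6% ± 3.20, respectively.

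**Figure D4:**
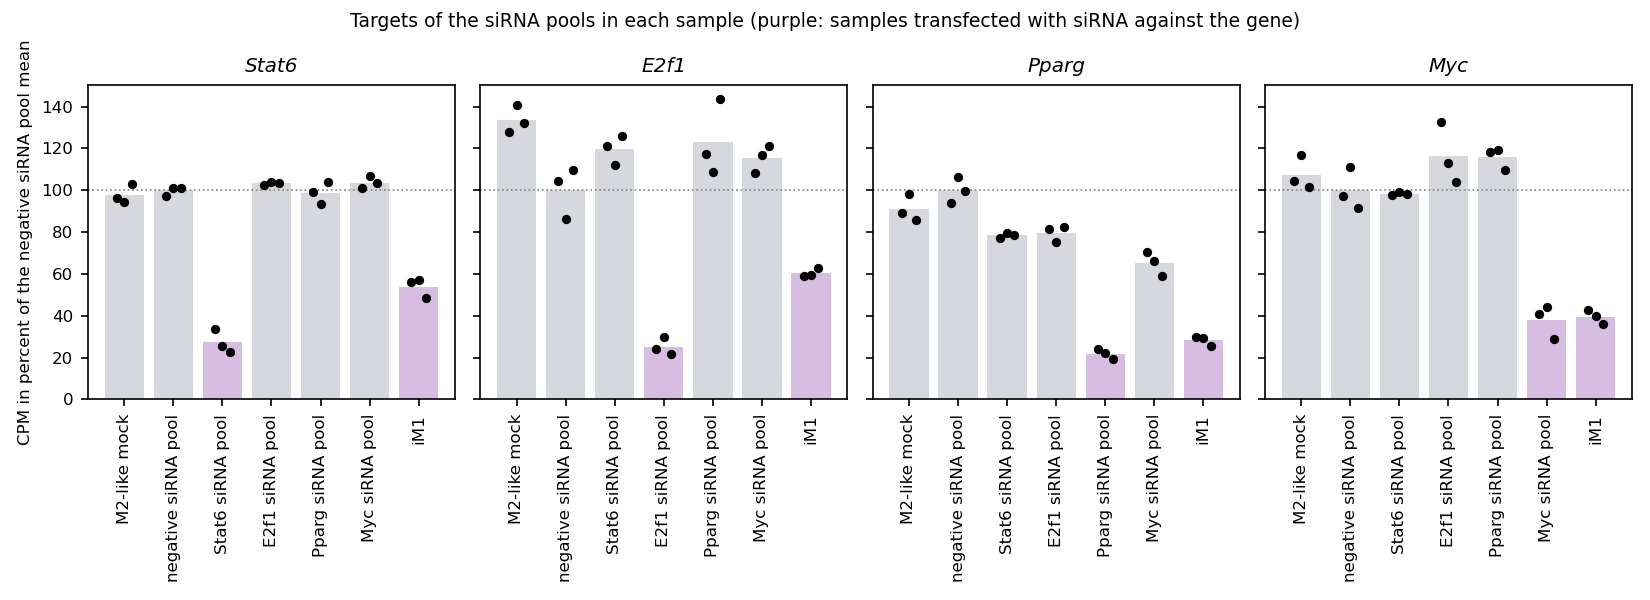
CPM of the 4 siRNA targets in percent of the mean of the negative siRNA pool, in each sample (points) and as the mean of 3 samples (bars; purple where the samples were given siRNA against that gene; axis from 0). Stat6 stands at 27.3% in the Stat6 siRNA pool and at 53.9% in iM1, and between 93.6% and 107% in the other siRNA and mock samples.

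Under Stat6 knockdown, no other member of the family passed the test. Compared to the negative siRNA pool, Stat6 fell by 1.87 on the log2 scale (SE 0.10, adjusted p = 3.54e-15) and was the only one of the 6 genes called, with 1.51% of all genes called. Stat2, at 172.5, 181 and 208 CPM, overlapped with the negative pool (0.02, SE 0.15, adjusted p = 0.984). Stat3 was at 203, 207 and 196 CPM, below the negative pool samples, but the difference of -0.16 (SE 0.09, adjusted p = 0.464) did not pass the test. Stat5a, Stat5b and Stat4 overlapped with the negative pool.

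At this residual level of Stat6 and 48 h without IL-4, 0 of 19 IL-4 and STAT6 targets were called in edgeR (4 at an unadjusted p under 0.05), with a median of -0.14 (all genes 0.00). DESeq2 called 1 of 22 lower, a fit without the filter on low counts 3 of 22 and a fit of only these groups 2 of 17. None of the 24 interferon targets was called in edgeR or DESeq2 (0 at an unadjusted p under 0.05, median 0.06). For the STAT3 and STAT5 targets, 0 of 17 and 0 of 11 were called in edgeR and 0 in DESeq2 (1 each at an unadjusted p under 0.05, medians 0.04 and 0.10). Receptor genes gave 0 higher and 2 lower of 24 (median -0.08): Csf2rb, the common chain of the receptors for GM-CSF, IL-3 and IL-5, from 876 ± 1.35 to 707 ± 34.96 CPM (-0.31, SE 0.06, adjusted p = 0.00209) and Ifnar1 from 115 ± 6.54 to 95.0 ± 5.22 CPM (-0.27, SE 0.07, adjusted p = 0.0343). Leaving out any sample of the Stat6 pool, or replicate 2 or 3 of the negative pool, left 1 of these calls. Of the inhibitors, Socs6 fell by 0.37 (SE 0.09, adjusted p = 0.0262), a call lost without replicate 2 or 3 of the Stat6 pool or replicate 1 or 3 of the negative pool. Pparg fell by 0.35 (SE 0.08, adjusted p = 0.0160), and it also fell with the E2f1 pool (-0.33, adjusted p = 0.0366) and the Myc pool (-0.62, adjusted p = 6.82e-07).

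With the pools against the other factors, the mean of Stat6 was 98.9% (Pparg) to 104% (Myc) of the negative pool. With the E2f1 pool, 0 of the 6 genes were called by edgeR or DESeq2, with 0.91% of all genes called, and with the Pparg pool 0 of the 6 by either tool, with 5.74% of all genes called. None of the 6 had an unadjusted p under 0.05 in these comparisons. Stat2 was at 178, 218 and 209 CPM with the E2f1 pool and at 219, 203 and 244 CPM with the Pparg pool, overlapping with the negative pool in both.

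The Myc pool came from another maker than the pools against E2f1, Pparg and Stat6. With it, Stat2 rose to 272, 277 and 314 CPM, above all negative pool samples, and was the only one of the 6 called, with 29.6% of all genes called. The log2 fold change was 0.63 (SE 0.15, adjusted p = 0.00212). Of the interferon targets, 4 rose and 0 fell (median 0.31, all genes 0.00), with Ifit3b (0.90, SE 0.27, adjusted p = 0.0109) and Oasl1 (0.67, SE 0.19, adjusted p = 0.00743) highest. Without Myc pool replicate 3 this count was 0 and without negative pool replicate 2 it was 1, whereas it was 16 without the filter and 17 in a fit of only these groups. Of the IL-4 and STAT6 targets, Tgm2, a transglutaminase, rose (0.64, adjusted p = 5.59e-05) and 7 fell (median -0.31), with Mgl2 (-1.86, adjusted p = 2.39e-06) and Clec10a (-1.68, adjusted p = 9.59e-07), both lectins of M2-like macrophages, lowest.

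iM1 macrophages, given all 4 pools, were compared with several references. Against the negative siRNA pool, 2 of the 6 genes were called, with 26.5% of all genes called. Stat2 was at 286, 267 and 295 CPM, above all negative pool samples (0.61, SE 0.15, adjusted p = 0.00336), and Stat6 fell by 0.89 (SE 0.09, adjusted p = 1.17e-08). Stat5a, at 34.6, 31.0 and 29.4 CPM, lay below the negative pool samples, with -0.22 (SE 0.09, adjusted p = 0.0798). It passed in a fit of only these groups (0.0493) and without iM1 replicate 1 (0.0478). The Stat2 values of iM1 and the Myc pool overlapped, and their difference was not tested.

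Of the 24 interferon targets, 9 rose in iM1 compared to the negative pool and 0 fell (median 0.40, all genes 0.01), with Ifit3b at 101 ± 29.7 compared to 44.9 ± 9.24 CPM (1.17, SE 0.27, adjusted p = 0.00134) and Isg20 higher by 0.85 (SE 0.18, adjusted p = 0.000725). This count was 18 without the filter on low counts and 21 in a fit of only these groups, and it was 4 without iM1 replicate 3, 4 without negative pool replicate 2 and 5 without negative pool replicate 1. Of the IL-4 and STAT6 targets, 1 rose and 5 fell (median -0.35), with Tgm2 higher (0.43, adjusted p = 0.00413) and Clec10a (15.2 ± 2.33 to 4.33 ± 1.05 CPM, -1.79, adjusted p = 5.01e-07) and Mgl2 (-1.60, adjusted p = 2.39e-05) lowest. Without the filter 10 of 22 were called. In the main fit, 26.5% of all genes were called.

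Against the Stat6 siRNA pool, iM1 had higher Stat6 (0.98, SE 0.09, adjusted p = 3.81e-09) and higher Stat2 (0.59, SE 0.15, adjusted p = 0.00509), 2 of the 6, where 22.2% of all genes were called. Stat6 was thus less reduced where its pool was combined with the 3 others, and the amount of each pool in the combination is not given in the sources used here.

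Against M2-like mock, 4 of the 6 genes were called in iM1, with 37.1% of all genes called. Stat2 (1.59, SE 0.16, adjusted p = 1.28e-09) and Stat3 (0.26, SE 0.09, adjusted p = 0.0164) rose, and Stat6 (-0.86, SE 0.09, adjusted p = 5.90e-09) and Stat5a (-0.34, SE 0.09, adjusted p = 0.00460) fell. The call for Stat3 was lost without iM1 replicate 2 (0.0652) or M2-like mock replicate 1 (0.0631). The negative siRNA pool also had higher Stat2 and Stat3 than M2-like mock, as given above.

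Against M1-like mock, the state that the reprogramming was aimed at, 5 of the 6 genes differed, with 52.9% of all genes called. Stat2 was higher in iM1 (0.87, SE 0.15, adjusted p = 1.70e-05), and no iM1 sample overlapped with M1-like mock. Stat3, at 207, 221 and 210 CPM in iM1 (209.5 in the last), was lower by 0.49 (SE 0.09, adjusted p = 1.72e-05). Stat4, at 0, 0.71 and 0.24 CPM, was lower by 2.73 (SE 0.57, adjusted p = 0.000166), and Stat6 was lower by 0.85 (SE 0.09, adjusted p = 3.24e-09). Stat5a was lower by 0.24 (SE 0.09, adjusted p = 0.0340), a call lost with RLE normalization (0.0533), DESeq2 (0.0637), no filter (0.0589) and at least 10 counts in every sample (0.0569), and without iM1 replicate 2 or 3 or M1-like mock replicate 2 or 3 (0.0614 to 0.146).

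Set in order over the 12 reprogramming conditions, the levels of Stat2 rose 10.1-fold from M2-like (28.4 ± 3.27 CPM, SD, n = 3) through M0, M2-like mock, M0 mock, M1-like, M1-like mock, the negative, Stat6, E2f1 and Pparg pools and iM1 (283 ± 14.3 CPM) to the Myc pool (287 ± 22.9 CPM). Of the 11 pairs of neighbours in this order, 3 did not overlap: M2-like and M0, M0 and M2-like mock, and the Pparg pool and iM1. Stat3 spanned 1.97-fold, from M0 (157 ± 13.6 CPM) to M1-like macrophages (310 ± 6.89 CPM), and every neighbour from the Stat6 pool up to the negative pool overlapped. Stat4 ran from 0.16 ± 0.10 CPM in M0 mock to 2.44 ± 1.23 CPM in M1-like macrophages, with M0 apart from the conditions on either side of it. Stat5a (31.7 ± 2.63 to 40.1 ± 3.88 CPM) and Stat5b (84.8 ± 4.07 to 102 ± 6.49 CPM) overlapped in all 11 pairs each. Stat6 was apart in the Stat6 pool and in iM1, and its other 9 pairs overlapped, from 267 ± 10.1 CPM in M2-like macrophages to 305 ± 8.40 CPM in the Myc pool.

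For 5 of the 6 genes, the genes with the most similar pattern were looked for by the Pearson correlation of log2 CPM over the 12 condition means, among 10130 genes with a mean log2 CPM of at least 2. These are descriptions over 12 points that share the same libraries and controls. For Stat2 they were Slfn1 (r = 0.994), Ube2l6 (0.992) and Xaf1 (0.991), of which Xaf1 is in the interferon target list. Stat4 itself lay below this minimum, with condition means of -1.85 to 1.24 log2 CPM and, for example, 0 to 13 reads per sample in iM1. Its most similar genes were Krtcap2 (0.993), Ogg1 (0.974) and Dr1 (0.971), a pattern that rests on the M1-like and M1-like mock conditions. For Stat5b they were Unc50 (0.942), Gxylt1 (0.891) and Sos2 (0.887) and for Stat5a Znrf2 (0.846), Ube2h (0.845) and Cinp (0.827), over a narrow range of levels. Stat6, whose lowest levels were in the conditions with siRNA against it, had no gene above 0.785 (Furin), followed by Glb1l (0.766) and Mapk1ip1l (0.748). Among the members themselves, Stat5a and Stat5b (0.67) and Stat3 and Stat4 (0.65) were most alike and Stat2 and Stat5a (-0.62) least.

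**Figure D5:**
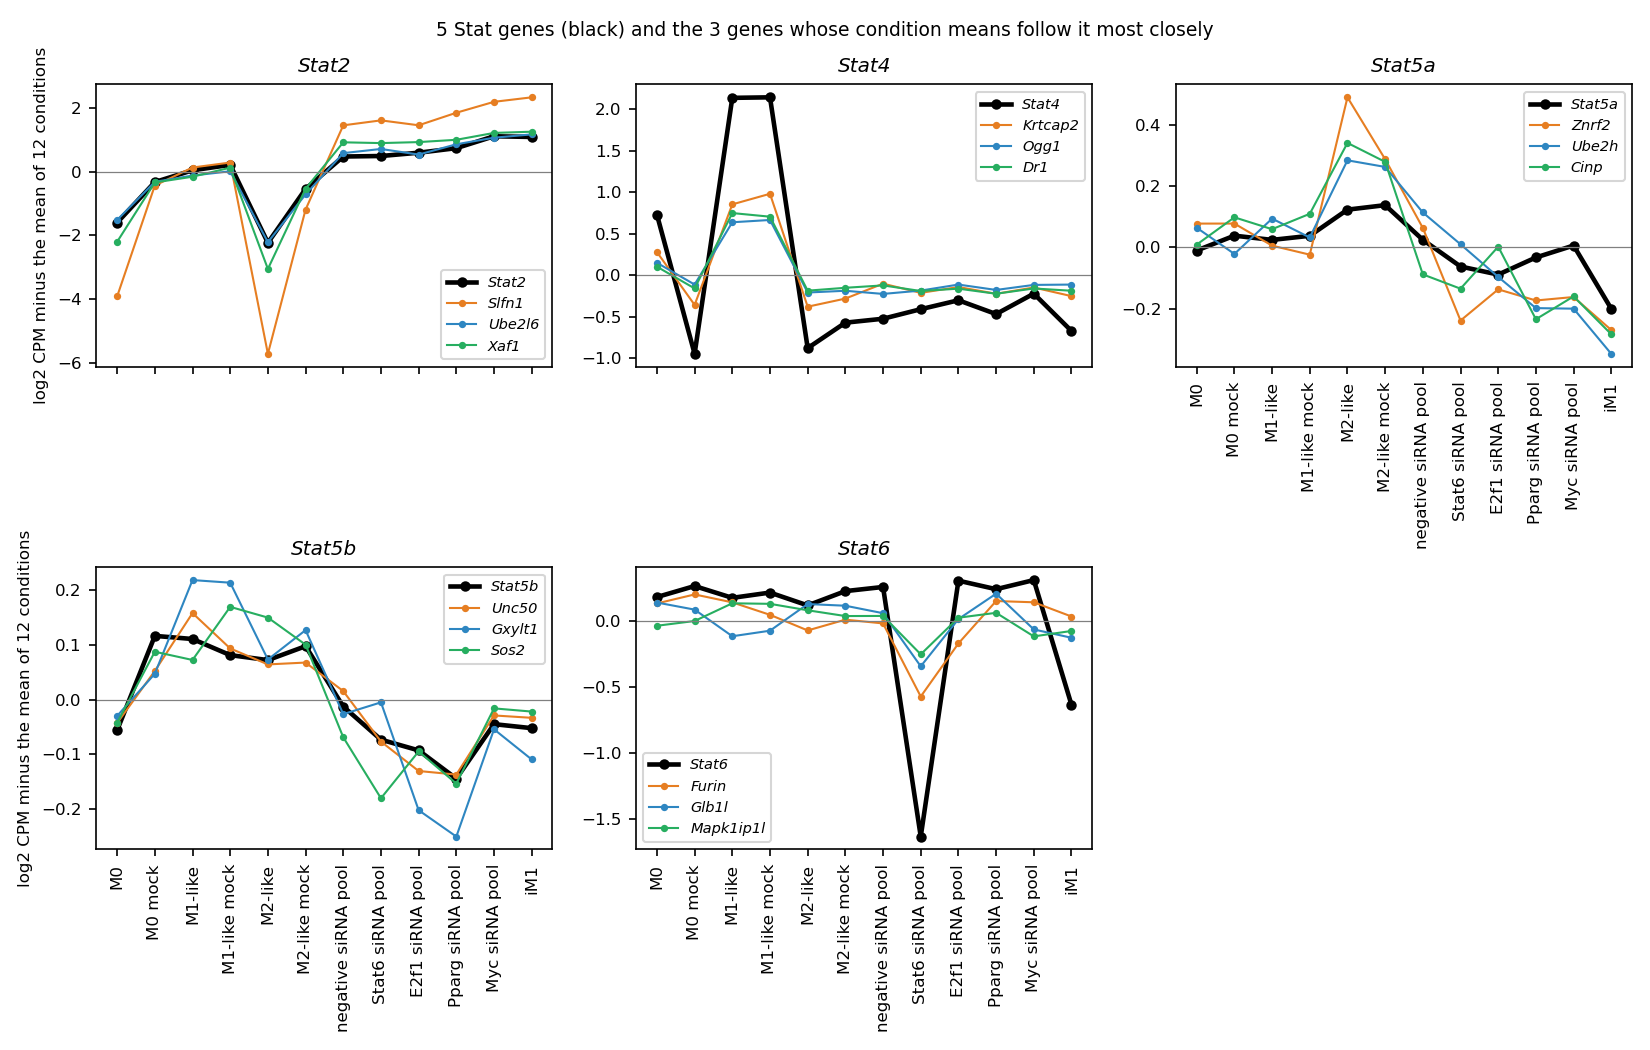
Mean log2 CPM in each of 12 conditions, minus the mean over the conditions, for Stat2, Stat4, Stat5a, Stat5b and Stat6 (black) and the 3 genes with the most similar pattern (colours), each panel with its own axis. Slfn1, Ube2l6 and Xaf1 follow Stat2 (r = 0.991 to 0.994) with different amplitude, while Furin, Glb1l and Mapk1ip1l follow Stat6 less closely (0.748 to 0.785).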

How the data were processed

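RNA-seq read counts per gene were analysed in 54 libraries of mouse peritoneal macrophages. According to the methods, reads were trimmed by the authors (Trimmomatic) and aligned to GRCm38/mm10 (TopHat), and the deposited values are raw counts per gene from featureCounts. Tool versions, the annotation release and the strand setting are not given in the sources used here. Technical replicates were summed, giving 9 polarization and 36 reprogramming samples, grouped by their labels.

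Genes with enough counts (filterByExpr of edgeR, minimum count 10, minimum total 15) were kept, 16110 and 14172 in the polarization and the reprogramming experiment. All 6 STAT genes passed in both. One model per experiment over all of its conditions was fitted with edgeR 4.0.16 in R 4.3.3 (TMM normalization, glmQLFit, glmQLFTest), p-values were adjusted by Benjamini-Hochberg over all genes tested, and a gene was called at an adjusted p under 0.05. The SE is the log2 fold change divided by the square root of F. CPM used TMM library sizes, and RPKM the union of exons of GENCODE M21. The same steps were also run on simulated data. In M1-like 24 h against M0 24 h (15918 genes), 97 of 100 genes changed by 1 on the log2 scale were recovered. There, 8 unchanged genes were called. Changed genes were drawn only from those above a minimum mean count, so recovery at low counts was not measured. Only 100 genes each were changed by 1 and by 2 on the log2 scale, whereas 72.9% of genes were called in the real comparison. Recovery and false calls where most genes change were therefore not measured. Alternatives were DESeq2 1.42.0, RLE normalization, a filter of 10 counts or more in every sample, omission of the filter, only the compared groups, a replicate block and leaving out each sample.

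Same-numbered polarization samples came from the same mouse. The main model had no term for the mouse, and a fit with the replicate number as a block was an alternative. Their deviations from the group means had a median correlation of 0.27 over 9 pairs (-0.14 over 18 other pairs). Precision is limited by depth for Stat4, with 0 to 126 reads per sample.

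Per list and comparison, the 2 called genes with the highest and the 2 with the lowest log2 fold change were named. Members and lists were chosen with earlier results of these data known. Authors' fold changes were not used. The genes with a pattern most like Stat3 are not reported here.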

Additional observations from a re-analysis of the deposited data

Results flagged for a closer look

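The effect of polarization on 2 of the 6 genes differed between mock-transfected and untransfected macrophages, by the test of the difference itself in edgeR. For Stat2, M1-like against M0 macrophages gave a log2 fold change of 1.66 without and 0.51 with mock transfection, a difference of -1.15 (SE 0.22, adjusted p = 0.000697). Against M2-like macrophages, M1-like macrophages gave 2.29 and 0.72, a difference of -1.57 (SE 0.23, adjusted p = 3.38e-05). For Stat3, M1-like against M0 gave 0.98 and 0.44, a difference of -0.54 (SE 0.12, adjusted p = 0.00295), which did not pass in a fit of only these groups (-0.55, adjusted p = 0.0570). M2-like against M0 gave 0.09 and -0.31 for Stat3, a difference of -0.40 (SE 0.12, adjusted p = 0.0467), which did not pass in a fit of only these groups (-0.39, adjusted p = 0.220). It was also lost without any of 8 of the 12 samples (adjusted p 0.0576 to 0.185), with the smallest value without M0 mock replicate 3 (-0.23, adjusted p = 0.185). The levels behind these differences were higher in M0 mock and M2-like mock than in the untransfected macrophages for Stat2, and in M0 mock for Stat3.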

How the results depend on the processing

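No call of the 6 genes reversed under any alternative. The log2 fold changes of the 6 genes were compared by their call (higher, lower or not called). The call stayed the same for 140 of 144 with DESeq2, 141 with RLE normalization, 142 without the filter and 143 with the replicate block. It also stayed for 121 of 123 with at least 10 counts in every sample and 129 of 134 with only the compared groups. When a sample was left out, 938 of 972 kept their call. Among values not called in either fit, the sign differed in 81 when a sample was left out. Under each other alternative it differed in at most 2 such values. The labels of the reprogramming replicates give only a number, and what samples of the same number share is not stated. Of the same-numbered pairs, 134 of 198 correlated above 0.1, and 35 of 36 samples were closest to their own number. The main model had no term for this number. With the replicate block, Stat5b passed in M1-like against M0 (0.17, adjusted p = 0.0486), and the block changed no polarization call of the 6 genes.

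The number of the 6 genes called moved by over 1.5 times in M2-like 24 h against M0 24 h from 1 to 2 (at least 10 counts, DESeq2; 1 to 2 leaving out a sample), in M2-like against M0 from 1 to 2 (no filter), in M2-like mock against M0 mock from 1 to 0 (only these groups; 0 to 1 leaving out a sample) and in iM1 against M1-like mock from 5 to 3 (at least 10 counts, where Stat4 was not tested). For the difference between mock and untransfected macrophages it moved from 2 to 1 in M1-like against M0 and from 1 to 0 in M2-like against M0 (only these groups; 0 to 1 leaving out a sample in the latter). Smaller moves, of 1 gene, were among others from 5 to 4 in iM1 against M1-like mock (RLE normalization, no filter, DESeq2), from 3 to 4 in M1-like against M0 (replicate block), from 2 to 3 in iM1 against the negative pool (only these groups) and from 3 to 2 in M0 mock against M0 (leaving out any sample).

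Alternatives for the gene lists were chosen after seeing the data. In the Stat6 pool, receptors called went from 2 to 1 without the filter and with only these groups (1 to 2 leaving out a sample), inhibitors ranged from 0 to 1 leaving out a sample, STAT3 targets went from 0 to 1 without the filter and with only these groups, and IL-4 and STAT6 targets from 0 to 3 without the filter, 2 with the replicate block, 2 with only these groups and 1 with DESeq2. With at least 10 counts in every sample, fewer genes were tested. IL-4 and STAT6 targets called were then 4 in M2-like against M0, 5 in M2-like mock against M0 mock and 5 in the Myc pool. STAT5 targets called in M1-like against M0 were 5 of 7 tested (main 8). In iM1, IL-4 and STAT6 targets called went from 6 to 10 without the filter and to 10 with the replicate block. Interferon targets called were 18 of 24 without the filter in M2-like against M0 (main 9) and in iM1 (main 9), with 21 in iM1 for only these groups and 4 to 9 leaving out a sample. In the Myc pool they were 4, with 16 without the filter, 8 with the replicate block, 17 with only these groups and 0 to 4 leaving out a sample. STAT5 targets called in M2-like 24 h ranged from 5 to 8 leaving out a sample. The causes were not tested.

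Over all genes, the replicate block moved the count of calls in M2-like mock against M0 mock from 543 to 900, in the Stat6 pool from 214 to 380 and in the E2f1 pool from 129 to 236. Without the filter, M2-like mock against M2-like moved from 251 to 387, the E2f1 pool to 237, M1-like mock against M1-like from 0 to 42 and the M1-like against M2-like difference from 160 to 306. With only the compared groups, M2-like mock against M0 mock gave 111, the E2f1 pool 342, and the differences of M1-like and M2-like against M0 735 (from 1286) and 495 (from 802). DESeq2 gave 363 for the Stat6 pool and 219 for the E2f1 pool. Leaving out a sample gave 92 to 151 genes in the Stat6 pool, 45 to 86 in the E2f1 pool, 359 to 703 (from 814) in the Pparg pool, 247 to 656 in M2-like mock against M0 mock, 2951 to 4655 (from 4499) in M2-like 24 h and 1042 to 1537 (from 1658) in the negative pool against M2-like mock.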
